A study of Mus musculus with 3 samples.

Results

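The genes described here are the 406 mouse protein-coding genes that carried many peaks of the retinoid X receptor alpha (RXRA) within their bodies in multipotent progenitors (MPP). They were chosen from 21900 protein-coding genes of the RefSeq annotation of GRCm38.p6, the assembly also called mm10, and make up 1.85% of them. A gene was taken where at least 4 peak summits of MPP replicate 1 and at least 3 of MPP replicate 2 lay inside it and more than 1 kb from both of its ends. Such summits are called internal below, and the peaks were those the submitters called with MACS2. Because the number of MPP summits chose the genes, those numbers are given as a description. The single library from haematopoietic stem cells (HSC) took no part in the choice, nor did the overlap of peaks between libraries or the peaks at the genes' own ends.

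RXRA is a nuclear receptor, a transcription factor switched by small lipophilic ligands. It binds DNA as a homodimer or together with partners such as the retinoic acid, PPAR and LXR receptors, usually at repeats of the hexamer AGGTCA. Nuclear receptors bind largely at distal enhancers, many of which lie within introns, and blood cell identity factors of the RUNX, ETS and SMAD families are known to use such elements. HSC are the rare self-renewing cells of the bone marrow, and MPP are their proliferating, multipotent descendants.

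CUT&RUN was used for the 3 libraries. It tethers a nuclease to chromatin with an antibody, here against RXRA, and sequences the fragments set free. The HSC library used 10000 cells sorted as lineage-negative, cKit+, Sca1+, CD48- and CD150+, and each of the 2 MPP libraries used 50000 lineage-negative, cKit+, Sca1+, CD150- cells. All cells came from bone marrow of C57BL/6 mice of about 10 months, pooled from 3 or 4 animals, and all were held with bexarotene, an RXR agonist drug, at 1 mM for 1 h. The labels give every library as VavCre+ and wild type, with floxed alleles of Rxra and Rxrb named in the growth protocol. Vav-Cre is driven by a promoter active across blood cells. Every library thus shares the drug and the genotype, and nothing in the labels says whether the pools of the MPP libraries were different animals.

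The HSC list held 4047 peaks, and the lists of MPP replicates 1 and 2 held 29848 and 19570. The lists carry no read totals. Solved from the statistics of the peaks themselves, the genome-wide background was 0.604 fragments for HSC, 2.87 for MPP replicate 1 and 1.08 for replicate 2. By that measure the depth in MPP was 4.75 and 1.79 times that in HSC. The weakest peak held 5 fragments in HSC and 10 and 6 in the MPP libraries. With 1 HSC library and 2 MPP libraries, and no control antibody library used here, no test between cell types was made. Shares below carry exact binomial (Clopper-Pearson) 95% intervals and fragment counts carry exact Poisson ones, and both cover counting error only. Where a count is 0, the limit given is instead 3 counts of the total. An HSC site without a peak was not detected at that depth, which is not the same as absent.

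The chosen genes were long. Their lengths ran from 20.6 kb to 1612 kb with a median of 158 kb, against a median of 17.1 kb over all protein-coding genes, and none of the 11862 genes under 20 kb met the rule. The share of genes chosen was 0.432% at 20 to 50 kb, 3.42% at 50 to 100 kb, 9.52% at 100 to 200 kb, 16.6% at 200 to 400 kb and 15.6% above 400 kb. Of the 352 genes over 400 kb, 297 stayed outside, so length alone did not decide membership. The 406 genes covered 8.71% of protein-coding gene length. They held 22.9% of the internal summits of MPP replicate 1 (2620 of 11452) and 26.5% of those of replicate 2 (1798 of 6790). In HSC, which the rule did not use, they held 27.0% of internal summits (334 of 1238; 24.5 to 29.5%).

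**Figure D1:**
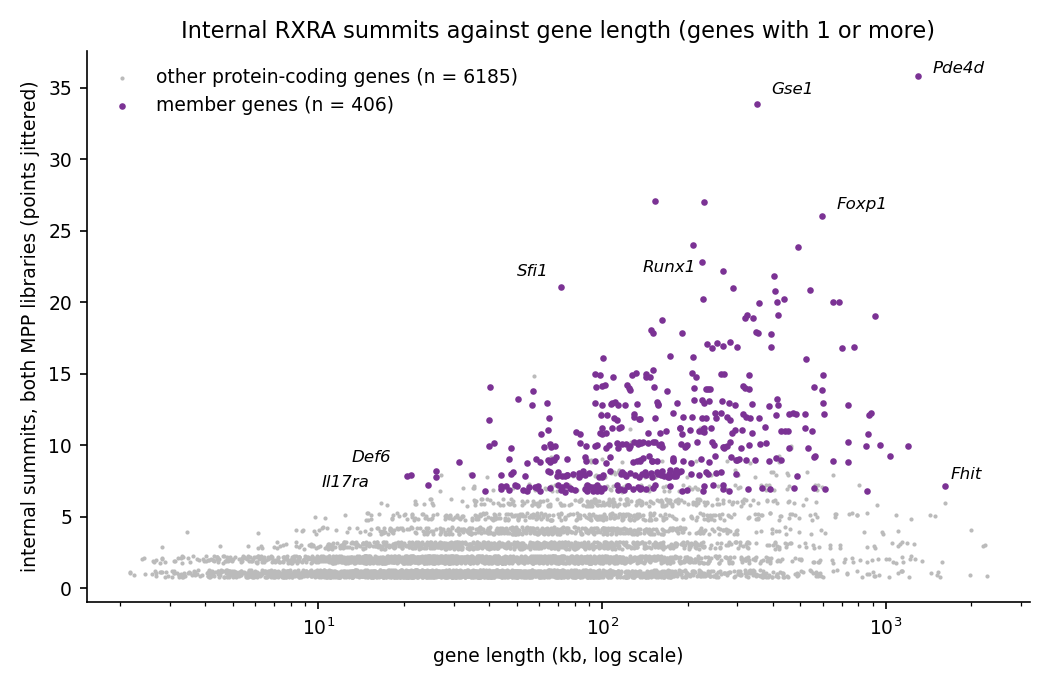
Internal RXRA summits summed over both MPP libraries (vertical axis, summits per gene, jittered) against gene length (horizontal axis, kb, log scale), for every protein-coding gene with at least 1. Members of the set are purple and start at 20.6 kb, and the highest counts are those of Pde4d and Gse1.

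Per gene, internal summits numbered 4 to 25 in MPP replicate 1 (median 6), 3 to 14 in MPP replicate 2 (median 4) and 0 to 4 in HSC (median 1). The median density was 3.69 summits per 100 kb in MPP replicate 1, 2.6 in replicate 2 and 0.276 in HSC. Summed over the genes, density was 2.9, 1.99 and 0.369 summits per 100 kb in the same order. Other genes at least as long as the shortest of the set, 9487 in number, had 0.857, 0.474 and 0.0875. Because a fixed minimum number of summits means a higher density in a short gene, density fell with length within the set (Spearman's correlation -0.897 over 406 genes, a description that the rule largely fixes). Counts in the MPP libraries followed each other loosely, with a Spearman's correlation of 0.51 over the same genes, which share the minimum of the rule.

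Many genes sat near the minimum. Of the 406, 106 had exactly 4 summits in MPP replicate 1, 151 had exactly 3 in replicate 2, and 67 had both. Just outside lay 113 genes with 3 summits in replicate 1 and at least 3 in replicate 2, and 153 with at least 4 in replicate 1 and 2 in replicate 2. Among these, Sp140 had 13 and 2 summits in MPP replicates 1 and 2, Capzb had 10 and 2, and Mgat5 had 3 and 7. Genes on the 2 sides of the minimum were alike in length, with a median of 96.2 kb for the 67 at both minima and of 104 and 118 kb for the excluded groups. The receptor's own gene, Rxra, fell outside with 6 summits in MPP replicate 1, 1 in replicate 2 and 1 in HSC. Rxrb had none in any library. Myc, the proto-oncogene whose pathway the title of the series names, had 1 in MPP replicate 1 only. The number of genes rests on both libraries. With the minimum of replicate 2 alone 614 genes would be taken, and with that of replicate 1 alone 719. With peaks of q at or below 1e-05 only, 99 genes remained, all of them among the 406.

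The genes with the highest counts were led by Pde4d, a phosphodiesterase that degrades cyclic AMP, at chr13:108654177-109955969. Pde4d held 22 internal summits in MPP replicate 1, 14 in MPP replicate 2 and 4 in HSC over 1302 kb. Gse1, a gene of a histone deacetylase corepressor complex, held 25, 9 and 2 over 353 kb, the highest count of replicate 1. Foxp1, a forkhead transcription factor of lymphoid cells, held 18, 8 and 2 over 597 kb. Zmiz1, a coregulator of the PIAS family, held 12, 12 and 1 over 209 kb. Runx1 followed with 15, 8 and 3 over 225 kb, Prkce with 16, 8 and 1, Sgms1, a sphingomyelin synthase, with 12, 10 and 2, Hivep3, a zinc finger protein, with 11, 11 and 3, and Arhgef3 with 12, 9 and 2. The replicates did not rank these genes alike, since Gse1 had far more summits in replicate 1 than in replicate 2 while Zmiz1 and Hivep3 had equal numbers. Also among the 12 highest counts were Gm38510, Gm7592 and Sfi1, which lay in DNA of raised background and are described at the end.

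The densest genes were short. Il17ra, the receptor for interleukin 17A, packed 4 internal summits of each MPP library and 2 of HSC into 20.6 kb at chr6:120463181-120483731. Def6, a guanine nucleotide exchange factor of lymphocytes, had 5, 3 and 3 summits in MPP replicates 1 and 2 and HSC over 21.2 kb. Summed over both MPP libraries, that is 38.9 summits per 100 kb for Il17ra and 37.8 for Def6. Vps37c, an ESCRT sorting subunit, had 5, 3 and 0 over 25.9 kb, and Camkk1, a calcium-calmodulin kinase kinase, had 4, 4 and 1 over 26.0 kb. Sp110, at 34.9, and Sfi1, at 29.4, were also among the 12 densest and lay in DNA of raised background. Ralgds, Sgf29, Cotl1, Pstpip1, Sema4b and Ccdc12 ran from 24.4 to 30.0 summed summits per 100 kb. At the other end, Fhit, the longest gene of the set, had 4, 3 and 0 summits over 1612 kb, which is 0.434 summed summits per 100 kb. Prkg1, Lrmda and Sox5, each 954 kb or longer, had 7 and 3, 5 and 4, and 5 and 5 summits in MPP replicates 1 and 2.

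The summits fell in every part of the gene body. Over the 324 genes whose strand was known from RefSeq promoter entries, the 20% of the gene next to the start held 21.4% of internal summits in MPP replicate 1 and 22.6% in replicate 2, and the last 20% held 18.7% and 17.1%. In HSC the 5 parts of equal length held between 18.0% and 21.9%. Neighbouring summits of one library lay a median of 13.8 kb apart in MPP replicate 1, 18.4 kb in replicate 2 and 30.7 kb in HSC. In MPP replicate 1, 54.4% of summits had another summit of the gene within 10 kb, against 41.8% in replicate 2 and 11.5% in HSC, in the order of the lists' lengths. In Runx1 a pair of neighbouring sites described below lay close together, while its sites with a peak in every library lay far apart.

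**Figure D2:**
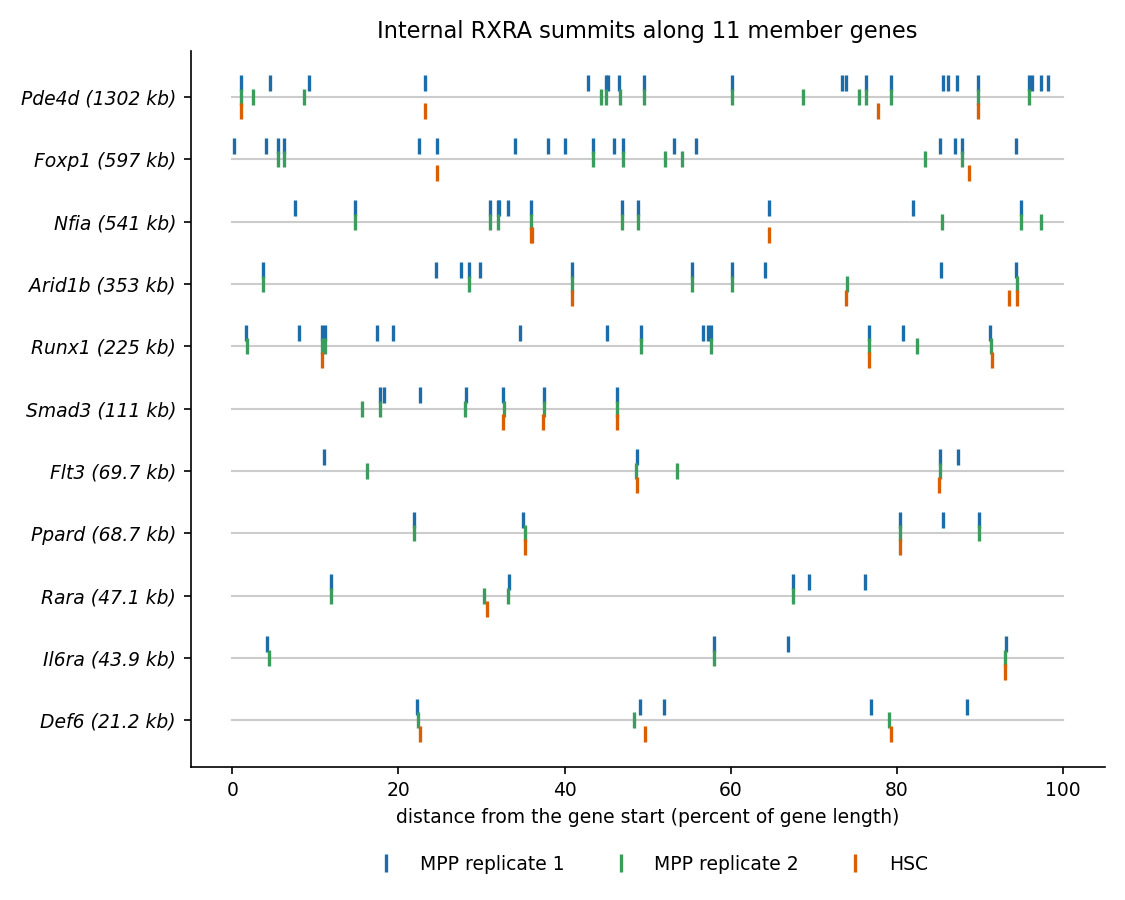
Internal RXRA summits (ticks) along 11 genes of the set, each drawn from its annotated start to its end as percent of gene length, in MPP replicate 1 (blue), MPP replicate 2 (green) and HSC (orange). Ticks of different libraries coincide at some places, as at all 3 HSC summits of Def6 and Smad3, and stand alone at others.

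Transcription factors of blood cells made up 14 of the 406 genes, from a list of 52. They were Foxp1, Runx1, Nfia, Runx2, Bach2, Etv6, Smad3, Tcf7l2, Tcf4, Meis1, Nfatc1, Cbfa2t3, Fli1 and Erg. That is 26.9% of the list against 1.85% of all protein-coding genes, but the listed genes were long, with a median of 99.2 kb. Among genes over 50 kb, the list held 14 of 37 (37.8%) against 7.77% of all genes of that length. Their internal summits ran from 4 to 18 in MPP replicate 1 (median 7), from 3 to 9 in replicate 2 (median 5) and from 0 to 3 in HSC (median 1.5). The lists of genes were drawn up with earlier results of these data known, so such counts describe the set and are no independent evidence about a class of genes.

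Runx1, the core factor of definitive blood formation, carried 3 internal sites with a peak in all 3 libraries. The first, at chr16:92801628-92802012, lay 24.3 kb inside the gene from its outermost start, with folds over local background of 5.61 in HSC and 4.87 and 8.66 in MPP replicates 1 and 2. A neighbouring site, at chr16:92800818-92801186, had peaks in both MPP libraries, with folds of 8.53 and 7.46, and none in HSC. Runx1 is known to hold a blood stem cell enhancer in the intron downstream of its distal promoter, and whether either site is that enhancer was not tested. The other Runx1 sites of all 3 libraries were chr16:92653919-92654260, with folds of 4.99, 6.26 and 5.18 in HSC and MPP replicates 1 and 2, and chr16:92620699-92621520, with 7.44, 4.26 and 5.54. The last of these lay 24848 bases from the nearest annotated start of any gene in the promoter table.

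Smad3, which carries TGF-beta signals to the nucleus, had 7, 6 and 3 internal summits in MPP replicates 1 and 2 and HSC. Every HSC summit of Smad3 fell on a site peaked in both MPP libraries, and these sites clustered, from chr9:63706253 to chr9:63721934. Their HSC folds were 5.6, 5.41 and 5.03. Their folds were 4.93, 6.8 and 6.8 in MPP replicate 1 and 8.62, 10.5 and 7.84 in replicate 2. Ski, a corepressor of SMAD proteins chosen here for its HSC count, showed the same arrangement, with 5, 5 and 3 summits and 3 sites in all 3 libraries, at chr4:155162413-155163038, chr4:155187120-155187609 and chr4:155200695-155201520. The HSC folds of the Ski sites were 4.25, 5.01 and 6.6. Nfia, a nuclear factor I gene, had 12, 9 and 3 summits over 541 kb and 1 site in all 3 libraries, at chr4:97772032-97772506. Tcf7l2, a Wnt pathway factor, had 7, 4 and 2 summits, and both of its HSC summits lay at sites peaked in both MPP libraries. Runx2, Bach2 and Etv6 had 12, 10 and 10 summits in MPP replicate 1, 7, 8 and 7 in replicate 2 and 1, 1 and 0 in HSC. Blood factors thus differed within the set. Some carried HSC peaks at shared sites, and Etv6, Fli1, Erg and Nfatc1 had no internal HSC summit.

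Of 34 nuclear receptor genes, 3 were in the set (8.82%), namely Rora, Rara and Ppard. Among those over 50 kb the count was 2 of 18 (11.1%), against 7.77% of all genes of that length. Rara and Ppard encode partners of RXRA. Rara, the retinoic acid receptor alpha, had 5, 4 and 1 internal summits in MPP replicates 1 and 2 and HSC over 47.1 kb, or 10.6, 8.48 and 2.12 per 100 kb. Ppard, the lipid-sensing receptor PPAR delta, had 5, 4 and 2 over 68.7 kb. Both HSC summits of Ppard lay at sites peaked in all 3 libraries. The first, chr17:28256700-28257491, had folds of 7.51 in HSC and 4.44 and 5.91 in MPP replicates 1 and 2, and the second, chr17:28287805-28288320, had 6.06, 3.43 and 3.73. Rora, a receptor of the ROR family, had 9, 4 and 1 summits over 735 kb, with 1 site in all 3 libraries at chr9:68956352-68956864.

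Ppard lies next to Def6, with 4.15 kb between the genes, so the pair formed a stretch of dense peaks on chromosome 17. Def6 had 3 sites in all 3 libraries, which were all of its HSC summits. They lay at chr17:28211936-28212451, chr17:28217508-28218174 and chr17:28223624-28224445, with HSC folds of 5.72, 6.28 and 7.03 from 12, 11 and 14 fragments. The MPP replicate 2 folds at these sites were 7.49, 7.46 and 11.1. In all, 42 of the 406 genes lay within 100 kb of another gene of the set, 11 of which overlapped one.

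Chromatin regulators and nuclear receptor coregulators contributed 8 of 50 listed genes (16%), against 1.85% of all genes. Among listed genes over 50 kb the share was 16.7%, against 7.77% of all genes of that length. Arid1b, a subunit of the BAF remodelling complex, had 11, 7 and 4 internal summits in MPP replicates 1 and 2 and HSC, and is 1 of only 5 genes of the set with 4 in HSC. Its site at chr17:5327519-5328173 had 20 HSC fragments and folds of 7.39, 5.23 and 6.95 in HSC and MPP replicates 1 and 2. Dnmt3a, the DNA methyltransferase that limits HSC self-renewal, had 6, 4 and 2 summits, and both HSC summits lay at sites peaked in both MPP libraries. Chd9 and Chd7, chromodomain remodellers, had 13 and 5 summits in MPP replicate 1 and 7 and 4 in replicate 2. Jmjd1c, Smarca2 and Arid1a had 8, 4 and 4 in MPP replicate 1 and 0, 1 and 0 in HSC.

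Kinases, phosphatases and lipid signalling genes contributed 17 of 50 (34%), against 1.85% of all genes. Among those over 50 kb this share was 35.6%, against 7.77% of all genes of that length. Dock2, the Rac activator of blood cells, had 5 summits in MPP replicate 1, 9 in replicate 2 and 3 in HSC. Its site at chr11:34681636-34682339 was among the strongest HSC peaks of the set, with a fold of 15.3 from 46 fragments in HSC and folds of 11.9 and 11.6 in the MPP libraries. Tiam1 and Prex1, Rac exchange factors, had 12 and 10 summits in MPP replicate 1, 8 and 5 in replicate 2 and 2 and 1 in HSC. Itpkb, an inositol trisphosphate kinase needed by blood cells, had 8, 5 and 3 summits, and its 3 HSC summits all lay at sites peaked in both MPP libraries, the strongest at chr1:180364047-180364421 with an HSC fold of 5.53. Map3k5, a stress-activated kinase, had 12, 4 and 3. Inpp5d, the lipid phosphatase SHIP1, had 8, 5 and 0, and Ptpre, a receptor-type phosphatase, had 9, 9 and 0. Inpp5d and Ptpre thus had many internal MPP summits and no internal HSC summit, although Ptpre had an HSC peak at its start.

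Receptors and surface genes of stem and progenitor cells contributed 7 of 50 (14%), against 1.85% of all genes, and 6 of the 19 over 50 kb, where 7.77% of all genes met the rule. Flt3, the cytokine receptor that marks lymphoid-primed MPP, had 4, 4 and 2 internal summits in MPP replicates 1 and 2 and HSC over 69.7 kb. Both of its HSC summits fell on sites in all 3 libraries. At chr5:147340974-147341351 the folds were 6.57 in HSC and 7.44 and 8.66 in MPP replicates 1 and 2, and at chr5:147366298-147366770 they were 4.79, 6.24 and 6.63. Il6ra, the interleukin 6 receptor, had 4, 3 and 1, with the HSC summit at chr3:89872252-89872600 shared by all 3 libraries. Angpt1, a ligand of the Tie2 receptor, had 5, 7 and 0, and Igf1r, Tgfbr2, Insr and Notch2 also had no internal HSC summit. Notch2 did have an HSC peak at its start. Of the 12 genes whose proteins define the sort or mature lineages, among them Kit, Ly6a, Slamf1, Cd48 and Ptprc, none was in the set. Only 3 of these 12 were over 50 kb, and peak lists give no RNA level against which to check the sort.

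A list of 40 very long genes, drawn up for neurons and muscle but not confined to them, had a median of 1142 kb. It contributed Wwox and Fhit alone (5%), against 15.6% of all genes over 400 kb. The list averaged 0.118, 0.0579 and 0.0224 internal summits per 100 kb in MPP replicates 1 and 2 and HSC. Over all protein-coding genes the same densities were 1.11, 0.656 and 0.119. Wwox, an oxidoreductase gene at a common fragile site, had 9, 10 and 3 summits over 913 kb. Great length therefore did not bring many summits in this list. RNA was not measured in these libraries.

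No gene of the set lay on the X chromosome. Of 216 X-linked genes over 50 kb 0 met the rule, a limit of 1.39% at 3 counts, against 7.77% of all genes over 50 kb. On every autosome between 13 and 37 genes were chosen, from 5.33% to 10.7% of those over 50 kb. Internal summit density on X was 0.139 per 100 kb of gene in MPP replicate 1, 0.154 in replicate 2 and 0.0174 in HSC, against 1.16, 0.681 and 0.124 on the autosomes. The sex of the animals is not in the labels.

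In HSC, 222 of the 406 genes had at least 1 internal summit (54.7%; 49.7 to 59.6%), against 4.97% of all protein-coding genes and 7.53% of other genes at least as long as the shortest of the set. At least 2 were found in 82 (20.2%), against 0.584% of all genes. Counts of 0, 1, 2, 3 and 4 HSC summits occurred in 184, 140, 53, 24 and 5 genes. By length class the HSC share within the set ran from 51.8% at 100 to 200 kb to 63.6% at 20 to 50 kb. In other genes it rose with length from 4.77% to 18.2%. A closer comparison is with other genes that had at least 1 internal summit in both MPP libraries, where the share rose from 19.2% at 20 to 50 kb to 30.1% above 400 kb. Those genes needed only 1 internal summit in each MPP library, against 4 and 3 in the set, so the set held more MPP peaks per gene. Per peak the groups were closer, with an HSC counterpart for 10.5% of replicate 1 peaks in the set and 9.71% in those genes. The part of peak number in the HSC share per gene was not tested. For that share, the 95% intervals of the set and of those genes did not overlap in any of the 5 length classes. These intervals cover counting error in 1 HSC library, so how the share would vary between HSC samples is unknown. With peaks of q at or below 1e-05 in every list, 36.4% of the 99 genes then taken had an internal HSC summit.

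**Figure D3:**
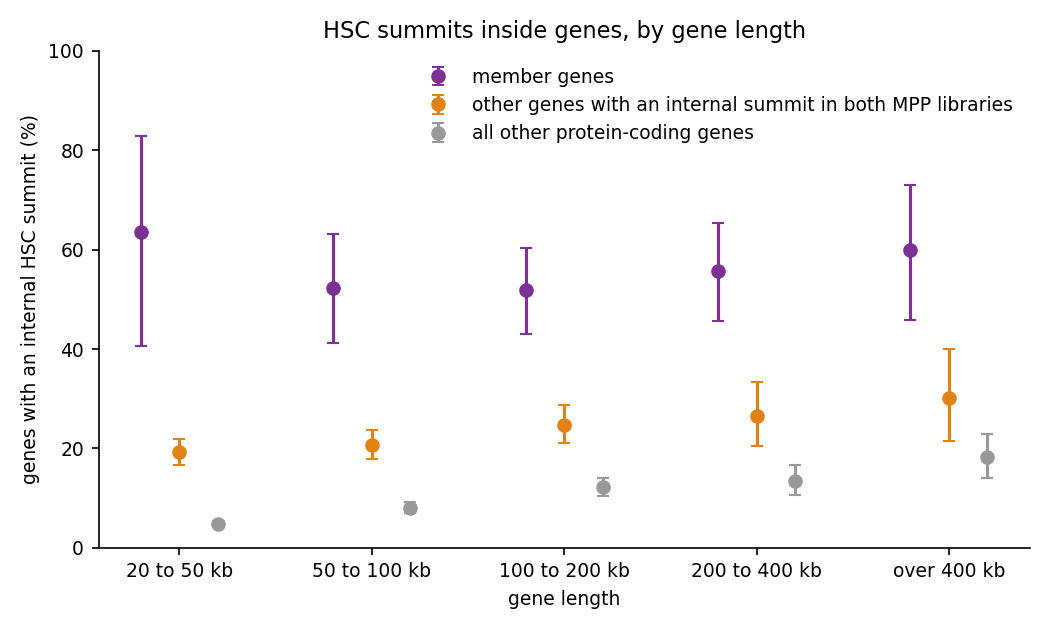
Percent of genes with at least 1 internal HSC summit (vertical axis) by class of gene length, for the 406 genes (purple), other genes with an internal summit in both MPP libraries (orange) and all other genes (grey). Bars are exact binomial 95% intervals, and the purple points lie between 51.8% and 63.6%, above the others in each class.

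The HSC share changed with the MPP count. It was 38.8% of the 67 genes at both minima, 63.5% of the 115 genes with at least 8 summits in MPP replicate 1 and 89.7% of the 29 with at least 10 and 7. These classes also differed in length, with medians of 96.2, 240 and 353 kb, and length and MPP count were not told apart. The excluded genes next to the minimum had shares of 42.5% and 37.3%, beside 44.3% of the 106 genes with exactly 4 summits in replicate 1 and 46.4% of the 151 with exactly 3 in replicate 2. The genes with 4 HSC summits were Pde4d, Arid1b, Hivep2, Sfi1 and Tmem267, of which the last pair lay in DNA of raised background. Hivep2, a zinc finger gene related to Hivep3, had 4 HSC summits against 5 and 3 in the MPP libraries. Genes with 3 included Def6, Ski, Smad3, Itpkb, Por, Cuedc1 and Lrrfip1.

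Summits recurred at the same sites between libraries, which the rule did not ask for. Of internal MPP replicate 1 peaks in the set, 48.5% (46.5 to 50.4%) shared 1 bp or more with a replicate 2 peak, against 36.2% (35.2 to 37.2%) of internal peaks in other genes. The reverse share was 70.4% in the set and 63.9% elsewhere. Genes outside the set with a summit in both MPP libraries had higher shares, at 55.0% and 73.7%, so recurrence was not above that of other genes marked in both replicates. Over 5 classes of replicate 1 fold, recurrence climbed from 27.0% to 79.2%. Camkk1, Mad1l1 and Arap1 had every MPP summit at a shared site, while Igf1r had 1 of 6 in each library. The other 1350 replicate 1 peaks of the set had no counterpart called in the shallower replicate.

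**Figure D4:**
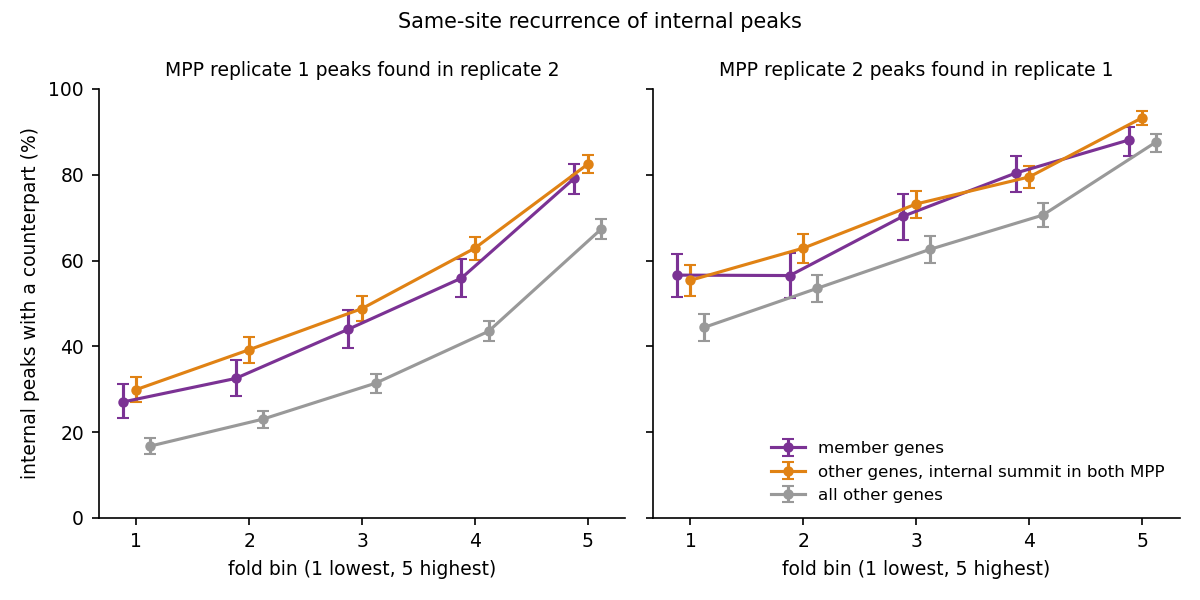
Percent of internal MPP peaks with an overlapping peak in the other MPP library (vertical axis), by 5 classes of fold over local background from lowest to highest, for replicate 1 (left) and replicate 2 (right). Colours are the 406 genes (purple), other genes with a summit in both libraries (orange) and all other genes (grey), with exact binomial 95% intervals. Purple points of replicate 1 rise from 27.0% to 79.2%.

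HSC peaks inside the set mostly overlapped MPP peaks. Of 334 internal HSC peaks, 294 (88.0%; 84.1 to 91.3%) overlapped a peak of either MPP library and 240 (71.9%) overlapped both, against 78.2% and 55.3% of internal HSC peaks in other genes. In other genes with an internal summit in both MPP libraries the shares were 88.8% (86.2 to 91.1%) and 73.0%, so the set was not above genes marked in both replicates. In the other direction 10.5% of replicate 1 peaks in the set had an HSC counterpart, against 7.16% elsewhere and 9.71% in other genes marked in both MPP libraries. For replicate 2 these shares were 14.8%, 11.7% and 12.7%. Replicate 1 sites of the set that recurred in replicate 2 had an HSC peak in 19.2% of cases (17.1 to 21.5%), and those that did not recur in 2.37% (1.63 to 3.33%). From the lowest to the highest class of replicate 1 fold, the HSC share of the set rose from 3.86% to 21.9%. Recurrence rose from 27.0% to 79.2% over the same classes, and the part of fold in the contrast was not tested.

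Sites with a peak in all 3 libraries numbered 243 gene and site pairs in 186 genes, of which 46 genes had at least 2 and 11 had at least 3. The strongest in HSC lay in Atrnl1 at chr19:58113220-58113746, with folds of 31.5 in HSC and 25.6 and 27.2 in MPP replicates 1 and 2. Its pileups were 142 (120 to 167), 222 (194 to 253) and 154 (131 to 180) fragments. Flt1, a VEGF receptor gene, followed at chr5:147611317-147611682 with folds of 20.2, 13.3 and 17.1. The Dop1b site at chr16:93789057-93789457 had 17.1, 11.4 and 15.7. A site at chr16:57391181-57391709, inside both Filip1l and Cmss1, had 16.5, 20.3 and 27.4. These sites were picked for their HSC fold, so their HSC values are high by choice. Their folds lay far above the medians of 5.61, 4.36 and 5.39 for internal peaks of the set in HSC and MPP replicates 1 and 2. No control antibody library was used here, so whether the signal at these sites depends on RXRA was not tested.

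Peaks inside the set were ordinary in strength. The median fold of internal peaks was 4.36 in MPP replicate 1, 5.39 in replicate 2 and 5.61 in HSC, against 4.30, 5.39 and 5.44 for internal peaks in other genes. The median pileup was 18, 13 and 9 fragments and the median width 309, 327 and 336 bp. The genes thus held more peaks, of much the same height. Local background under the peaks was a little higher in the set, with medians of 1.16, 1.41 and 1.40 times the genome-wide level in MPP replicates 1 and 2 and HSC, against 1.10, 1.31 and 1.20 for internal peaks elsewhere. Its part in the number of peaks was not tested.

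Summit density was also taken in the 50 kb on either side of each gene, leaving out summits within 1 kb of any protein-coding gene end. Flanks of the set held 2.38 summits per 100 kb in MPP replicate 1, 1.34 in replicate 2 and 0.274 in HSC. Flanks of other genes at least as long as the shortest of the set held 1.46, 0.861 and 0.156. Those genes were shorter, with a median of 48 kb against 158 kb in the set. Some flanks reach into another gene of the set, whose MPP summits the rule used. Over the 368 genes with no other gene of the set within 50 kb, the flanks held 2.21, 1.28 and 0.272, against 1.39, 0.808 and 0.144 for 9043 other genes that lay equally far from the set. The flanks were thus also richer in summits in genes lying apart from others of the set, a comparison chosen after seeing the data. No flanking HSC summit was found in 78.1% of the set, against 86.8% of other genes at least as long as its shortest. The body was denser than the flanks in HSC in 47.5% of the set, of which 54.7% had any internal HSC summit. Among the other genes the body was denser in 6.96%. The same comparison in MPP is not given, because the body counts chose the genes.

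**Figure D5:**
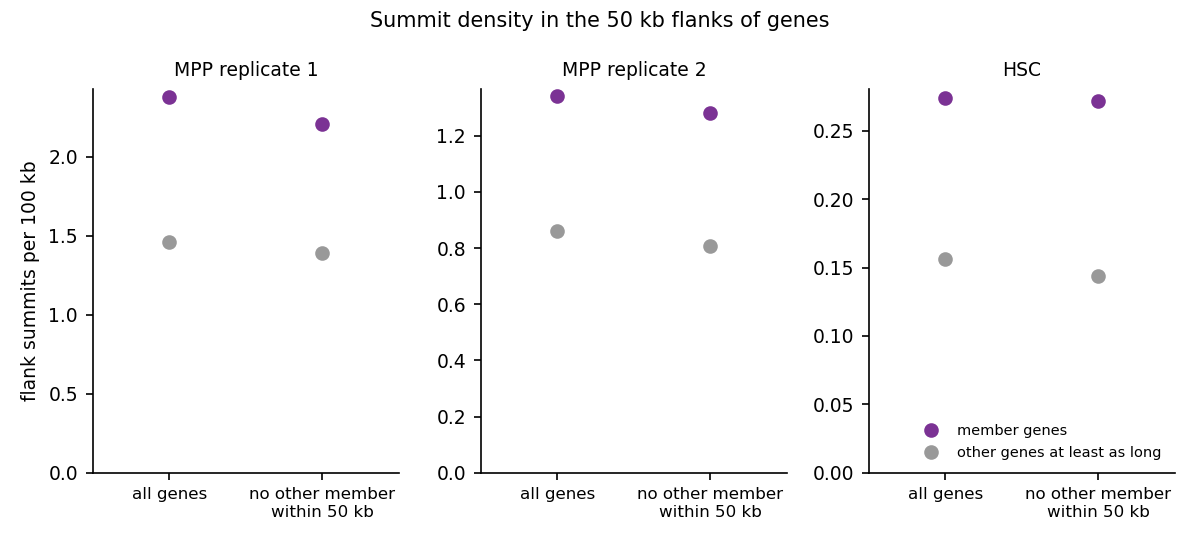
Summits per 100 kb (vertical axis, separate scale for each library, starting at 0) in the 50 kb flanks of the 406 genes (purple) and of other genes at least as long as the shortest of them (grey), over all such genes and over those with no other gene of the set within 50 kb. Purple lies above grey in each library, at 2.21 against 1.39 in MPP replicate 1 for the genes lying apart.

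Gene ends were marked about as often as elsewhere. A peak within 1 kb of a gene end was present in both MPP libraries in 121 of the 406 genes (29.8%; 25.4 to 34.5%), against 28.8% of all genes and 32.4% of other genes at least as long as the shortest of the set. In HSC 27 genes (6.65%) had one, against 8.18% of all genes. MPP replicate 1 alone gave 49.8% against 41.2% of all genes, and replicate 2 gave 40.4% against 35.9%. In 160 genes (39.4%) no library had a peak at an end, Pde4d, Gse1, Foxp1, Nfia, Smad3, Arid1b, Dnmt3a and Rara among them. Where strand was known, peaks stood at the start in 43.5%, 38.3% and 6.17% of genes in MPP replicates 1 and 2 and HSC, against 38.8%, 35.3% and 8.06% of all genes with known strand. At the far end they stood in 7.1%, 1.54% and 0%, against 5.89%, 3.82% and 0.692%. All 3 libraries had a gene-end peak in 16 genes (3.94%), against 5.8% of all genes. With the minimum and the gene-end peak of a single MPP library, the share was 39.3% for replicate 2 and 48.5% for replicate 1.

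Annotated starts inside the genes accounted for few of the summits. RefSeq promoter entries, each covering 250 bases before and 50 after an annotated start, matched 324 of the 406 genes. Of these, 188 had 294 starts that were internal by the same 1 kb distance. A peak overlapped 100 of these starts in MPP replicate 1, 76 in replicate 2, 54 in both (18.4%; 14.1 to 23.3%) and 10 in HSC, against 14.5% in both MPP libraries for internal starts of other genes. Internal summits within 1 kb of any annotated start were 8.01% of the set's summits in MPP replicate 1, 7.08% in replicate 2 and 4.95% in HSC. In other genes these shares were 15.1%, 19.4% and 18.3%. Most summits of the set were thus distal to the starts in the table, which does not list every gene, and exons and introns were not told apart here.

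The 7 internal starts with a peak in all 3 libraries lay in Creb5, Por, Clip2, Iffo2, Mideas and G3bp2, the last with a pair of starts. The G3bp2 starts share their peaks in HSC and MPP replicate 2, while MPP replicate 1 had a separate peak at each, with folds of 3.09 and 5.15. At Por the peaks of HSC and MPP replicate 1 each reached the start window but did not overlap each other, so they form no common site. Creb5 encodes a bZIP factor that binds cyclic AMP response and AP-1 elements, Por the electron donor of cytochrome P450 enzymes, Clip2 a microtubule linker, Mideas a partner of histone deacetylases and G3bp2 a stress granule protein. The 250 bases before each start are shown because each of these start windows was reached by a peak of every library. They are RefSeq sequence of GRCm38.p6, written 5′ to 3′ on the strand of the gene, and capitals mark matches to the motifs described after them.
Creb5, chr6:53573124-53573373, plus strand: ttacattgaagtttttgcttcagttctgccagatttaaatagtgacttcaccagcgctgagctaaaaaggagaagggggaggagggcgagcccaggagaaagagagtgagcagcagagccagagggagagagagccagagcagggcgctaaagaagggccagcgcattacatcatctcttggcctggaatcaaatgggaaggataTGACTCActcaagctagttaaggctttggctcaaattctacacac
Por, chr5:135688895-135689144, plus strand: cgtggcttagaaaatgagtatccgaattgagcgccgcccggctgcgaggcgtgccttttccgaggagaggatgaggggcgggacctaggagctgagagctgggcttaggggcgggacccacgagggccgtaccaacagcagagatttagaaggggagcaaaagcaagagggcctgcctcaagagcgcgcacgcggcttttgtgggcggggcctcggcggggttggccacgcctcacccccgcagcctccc
Clip2, chr5:134552435-134552684, minus strand: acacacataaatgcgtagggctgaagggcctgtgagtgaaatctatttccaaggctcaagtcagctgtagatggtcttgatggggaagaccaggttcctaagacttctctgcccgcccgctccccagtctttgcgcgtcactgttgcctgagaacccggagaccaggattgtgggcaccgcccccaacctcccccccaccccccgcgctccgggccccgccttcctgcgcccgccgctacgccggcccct
Iffo2, chr4:139574470-139574719, plus strand: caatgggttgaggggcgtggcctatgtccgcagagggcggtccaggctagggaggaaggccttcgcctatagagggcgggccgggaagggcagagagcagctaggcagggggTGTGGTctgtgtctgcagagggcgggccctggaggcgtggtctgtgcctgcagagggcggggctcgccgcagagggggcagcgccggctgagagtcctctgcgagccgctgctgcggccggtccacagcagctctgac
Mideas, chr12:84194016-84194265, minus strand: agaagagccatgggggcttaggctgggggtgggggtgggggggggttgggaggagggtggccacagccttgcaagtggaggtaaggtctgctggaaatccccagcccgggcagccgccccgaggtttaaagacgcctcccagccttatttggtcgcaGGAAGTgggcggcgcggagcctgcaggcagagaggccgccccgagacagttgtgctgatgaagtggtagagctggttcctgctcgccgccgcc
G3bp2, chr5:92083338-92083587, minus strand: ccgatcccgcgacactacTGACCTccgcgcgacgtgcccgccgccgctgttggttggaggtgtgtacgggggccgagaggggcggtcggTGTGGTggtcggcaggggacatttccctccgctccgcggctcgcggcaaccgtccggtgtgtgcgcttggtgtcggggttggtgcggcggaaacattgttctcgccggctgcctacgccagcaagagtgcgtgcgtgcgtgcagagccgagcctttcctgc
G3bp2, chr5:92083599-92083848, minus strand: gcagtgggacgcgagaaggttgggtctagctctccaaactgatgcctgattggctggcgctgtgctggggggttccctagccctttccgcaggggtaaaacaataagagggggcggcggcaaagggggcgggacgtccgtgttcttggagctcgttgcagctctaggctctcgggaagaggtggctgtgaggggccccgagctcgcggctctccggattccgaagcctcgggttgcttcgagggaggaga

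The motifs searched, on both strands, were the nuclear receptor hexamer AGGTCA, its direct repeats with 1 to 5 bases between, the ETS core GGAAGT, the RUNX motif TGTGGT, the GATA motif AGATAA and the AP-1 motif TGANTCA. A direct repeat contains the hexamer, and no other motif contains another. In these stretches the AP-1 motif occurred in Creb5, the ETS core in Mideas and the RUNX motif in Iffo2. In G3bp2 the hexamer and the RUNX motif both occurred before the start at lower coordinates. Por, Clip2 and the other G3bp2 stretch held none of the letters searched.

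The Creb5 peak had folds of 6.65 in HSC and 6.16 and 6.91 in MPP replicates 1 and 2 at this start, with 10, 24 and 16 fragments. The Iffo2 peak had 6.2, 6.35 and 8.86 in the same order. At Por the folds were 5.86, 3.16 and 7.81, and its other HSC summits, at chr5:135702618-135703293 and chr5:135713447-135713982, lay at sites of all 3 libraries away from that start.

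Over the 54 internal starts with a peak in both MPP libraries, the ETS core was found in 35.2% (22.7 to 49.4%), against 23.8% of all 32851 promoter entries and 34.6% of the 5480 with a peak in both MPP libraries. The RUNX motif was found in 14.8% against 16.8% of all entries, and the AP-1 motif in 9.26% against 7.81%. The hexamer was found in 7.41% (2.06 to 17.9%) against 16.3% of all entries and 11.1% of the peak-bearing ones. The GATA motif was in 0 of the 54 (a limit of 5.56% at 3 counts; the exact interval reaches 6.6%), against 11.2% of all entries and 4.69% of the peak-bearing ones. No direct repeat was in the 54, and over all entries each spacing stood in at most 0.0396%. These shares describe letters in windows at annotated starts, while most summits of the set lay elsewhere.

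In the set, 7 genes lay where the local background of MPP replicate 1 was more than 2 times the genome-wide level. This class rests on replicate 1 alone. In MPP replicate 2 the background also passed 2 times at genes outside the class, among them Rara (2.55), Smad3 (2.27), Def6 (2.25) and Gse1 (2.21). Sfi1, a spindle gene known for anomalous signal in mouse sequencing data, had 13, 8 and 4 internal summits in MPP replicates 1 and 2 and HSC in 71.5 kb, at 14.2 times the background and with a median fold of only 1.8. Tmem267 had 10, 4 and 4 at 12.9 times. Gm38510 (21, 6 and 2), Gm7592 (22, 5 and 0) and Sp110 (10, 4 and 0) lay on chromosome 1 between 85155201 and 85610850, and C130026I21Rik lies inside Gm38510, so that its 7, 3 and 1 summits are also counted there. These 4 genes stood at 2.44 to 5.07 times the background, and Sp140, just outside the minimum, overlaps Sp110. Pisd had 4, 3 and 0 at 2.06 times. Without these 7 genes 399 remained, and 54.6% of them had an internal HSC summit. Further, 11 genes shared summits with another gene of the set in 5 groups, such as Cmss1 with Filip1l, and counted once per group the set numbers 400.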

How the data were processed

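RXRA CUT&RUN peaks of 1 HSC and 2 MPP libraries were analysed. Per the submitters' processing notes, reads were handled with MACS2 2.1.4, Bowtie2 2.3.4.1, Trim Galore 0.4.2 and cutadapt 1.9.1 on mm10. Settings and any control library: not given in the sources used here. In the deposit, the authors gave 1 narrowPeak list per library, so peaks were called per replicate. Its fold enrichment is a deposited ratio of summit pileup to local background, each with 1 added. With a genome-wide background of 0.604 fragments in HSC, this lowers HSC folds most, so folds of different libraries are not on one scale. Its −log10 p and −log10 q values are as the authors deposited them. The deposited score, a rescaled −log10 q, was not used further. The weakest q was 0.0995 in HSC and 0.0971 and 0.0993 in MPP.

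Pileup and local background of each peak were recovered from fold and p by a Poisson model, and 100% of pileups came out whole within a tolerance of 0.001 in −log10 p. The lowest background of a list stands for its depth. Summits were assigned to RefSeq protein-coding genes of GRCm38.p6, and peaks sharing at least 1 bp were counted as one site. Strand and annotated starts came from the RefSeq promoter table, which matched 17492 protein-coding genes. Assignment and overlap were tested on simulated peaks. No test between groups was run, because the HSC group has 1 library. Pooled animals behind each library leave their spread unmeasured.

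The members and lists were chosen with earlier results of these data known. Genes named are the 12 members with most summed MPP summits, the 12 densest, the 12 with most HSC summits, the 5 longest and 5 shortest, up to 8 per list, the 8 with the highest recurring share, and Rxra, Rxrb and Myc. Genes named for strong shared sites, for peaks at internal starts, for raised background, for shared summits or for lying just outside the rule, and the remaining blood factors, were chosen after their values were seen. 1 listed gene and the count of 1 list are not reported here. Python 3.11.15, numpy 2.4.6, pandas 2.3.3 and scipy 1.17.1 were used. Alternatives changed the distance from gene ends, the q limit, the minimum, the overlap, the list length, shared summits and the libraries used.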

Additional observations from a re-analysis of the deposited data

How the results depend on the processing

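Under the alternatives 47 values moved by less than the counting interval or the spread used and 25 moved by more. Except for flanks, values of the comparison genes were not recomputed under the alternatives, so these changes do not say whether a difference from other genes held. With q at or below 1e-05 the set fell to 99 genes, of which 36.4% had an internal HSC summit and 23.2% a gene-end peak in both MPP libraries, with 54.8% of replicate 1 peaks recurring, 7.72% having an HSC counterpart and a median of 2.17 summits per 100 kb as the mean of both MPP libraries, against 3.11 as reported. With the MPP replicate 1 list held to the length of replicate 2, 242 genes remained, with 60.3% holding an HSC summit, 58.0% of peaks recurring and 14.0% having an HSC counterpart. With both minima raised by 1, 216 genes remained, with 60.6% holding an HSC summit and 34.7% a gene-end peak. Allowing a gap of 1 kb raised recurrence to 52.3%. Leaving out an MPP library gave 614 to 719 genes, 43.7% to 49.3% with an HSC summit, 39.3% to 48.5% with a gene-end peak, 40.1% to 65.5% of peaks recurring and 8.86% to 13.9% with an HSC counterpart. In these 2 settings the minimum and the peaks come from the library that is left, so the set is larger by construction. Counting shared summits once, leaving out genes of raised local background, leaving out HSC summits near annotated starts, and leaving out genes with another gene of the set within 50 kb, which moved the flank density of MPP replicate 1 to 2.21, were added after seeing the data. No paired analysis was possible because HSC and MPP share only replicate number 1 and no result comes from a test. Depth limits the HSC values most: the weakest HSC peak had to reach 8.28 times the genome-wide background, against 3.48 and 5.55 times in MPP.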
